A study of Mus musculus with 6 samples.

Results

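The pyruvate dehydrogenase set consists of 10 genes: 2 subunits of the catalytic E1 component of the pyruvate dehydrogenase complex (Pdha1 and Pdhb), the 4 kinases that switch the complex off (Pdk1, Pdk2, Pdk3 and Pdk4), the catalytic subunits of the 2 phosphatases that switch it on (Pdp1 and Pdp2), and the 2 subunits of the mitochondrial pyruvate carrier (Mpc1 and Mpc2). They were taken by gene symbol from the deposited count table, which holds values for 17034 genes. All 10 members had values, and all 10 were among the 13118 genes that passed the filter on low counts. Polyadenylated RNA came from gastrocnemius, a hindlimb muscle of mixed fibre types, of male mice aged 8 weeks, kept on standard chow without any drug or diet treatment. In 3 libraries, labelled WT, the mice carried the floxed Thra alleles (Thrafl/fl) without Cre. In the other 3, labelled TRa_mKO, Thrafl/fl mice also carried a Myf5-Cre transgene, which acts in myogenic cells from embryonic life on, so that the receptor gene was targeted long before the muscle was adult. Both genotypes thus share the floxed allele, and the labels give every library the same batch. The libraries are taken as separate mice, since the series design counts 3 per genotype.

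The pyruvate dehydrogenase complex converts pyruvate to acetyl-CoA in the mitochondrial matrix and so joins glycolysis to the tricarboxylic acid cycle. Kinases of the Pdk family phosphorylate its E1 alpha subunit and stop it, the Pdp phosphatases remove the phosphate, and the carrier made of Mpc1 and Mpc2 brings pyruvate across the inner membrane. In skeletal muscle Pdk4 is known for its rise in fasting and with fatty acid use, and Pdk1 for its control by the hypoxia-inducible factor. Thyroid hormone is known to raise Pdk4 in several tissues, and thyroid hormone receptors bind DNA at copies of a short half-site.

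The sequences just upstream of the kinase genes are shown because the kinases are the members that differed most from one another. RefSeq promoter windows (build GRCm38.p6, 250 bases before to 50 bases after a start site) matched 9 of the 10 members, all but Pdp1, with 2 start sites each for Pdk1, Pdk2 and Mpc1. Printed 5′ to 3′ on the gene's strand are the first listed window of Pdk1 (chr2:71872974-71873273, plus strand), the first of Pdk2 (chr11:95041322-95041621, minus strand) and the one of Pdk4 (chr6:5496229-5496528, minus strand). Capitals mark motif matches, and the rest is in lower case.
Pdk1: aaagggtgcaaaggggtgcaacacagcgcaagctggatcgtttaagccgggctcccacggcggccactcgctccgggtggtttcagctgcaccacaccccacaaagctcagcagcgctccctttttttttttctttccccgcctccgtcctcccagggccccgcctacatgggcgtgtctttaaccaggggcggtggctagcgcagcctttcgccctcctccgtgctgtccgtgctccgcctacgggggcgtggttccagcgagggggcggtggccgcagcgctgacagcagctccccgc
Pdk2: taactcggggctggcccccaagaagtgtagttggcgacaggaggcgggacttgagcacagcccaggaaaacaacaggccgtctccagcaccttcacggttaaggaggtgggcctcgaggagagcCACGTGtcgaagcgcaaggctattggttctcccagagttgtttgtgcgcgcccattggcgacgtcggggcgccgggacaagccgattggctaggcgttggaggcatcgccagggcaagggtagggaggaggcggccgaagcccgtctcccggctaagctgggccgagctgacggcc
Pdk4: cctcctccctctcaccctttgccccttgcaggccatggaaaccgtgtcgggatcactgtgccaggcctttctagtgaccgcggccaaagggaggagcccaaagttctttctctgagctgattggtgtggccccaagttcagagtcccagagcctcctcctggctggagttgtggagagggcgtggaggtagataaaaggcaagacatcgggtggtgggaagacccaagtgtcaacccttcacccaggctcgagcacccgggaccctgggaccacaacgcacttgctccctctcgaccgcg
5 motifs were searched on both strands: the nuclear receptor half-site AGGTCA, the ERR extended half-site TCAAGGTCA, which contains the former, the hypoxia core ACGTG, the E-box CACGTG, which contains the hypoxia core on both strands, and the forkhead core GTAAACA. The match in the Pdk2 window is an E-box at position -126 from the start, and it accounts for both hypoxia cores counted there. Pdk1 and Pdk4 showed none of the 5 in the windows printed, nor did the other Pdk1 start. Among all 32851 RefSeq windows, 16.3% held the half-site, 0.423% the ERR site, 19.6% the hypoxia core, 7.15% the E-box and 3.65% the forkhead core. Of the other members, the second Mpc1 start held 1 half-site at position -244 from it, Pdhb and Pdk3 held 1 hypoxia core each, and Pdp2 held an E-box. These matches describe letters in a short window and say nothing of binding.

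Library totals lay between 12390527 and 14488500 counts. Myofibre markers (Acta1, Ckm, Mb, Ttn and Des) were present in every library and summed to 51605 to 62015 CPM (CPM being counts scaled to library size and corrected for composition) in WT and 69596 to 78555 CPM in the libraries labelled TRa_mKO. The targeted gene, Thra, measured 78.8, 92.8 and 96.8 CPM in WT, against 129, 118 and 101 CPM in the libraries labelled TRa_mKO (log2 fold change 0.37, adjusted p = 0.117). A count over the whole gene includes exons outside the deleted stretch, and which exons are floxed was not given in the sources used here. It therefore checks nothing about the deletion, and each direction given here rests on the labels. Red blood cell transcripts (4 haemoglobin genes and Alas2 together) set apart WT replicate 1, at 1763 CPM, and TRa_mKO replicate 3, at 1621 CPM. The other 4 libraries lay at 458 to 917 CPM. The edgeR fit over all genes was also run without WT replicate 1 and TRa_mKO replicate 3.

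Of the 10 members, 1 rose and 0 fell in the libraries labelled TRa_mKO (edgeR quasi-likelihood test, Benjamini-Hochberg adjusted p below 0.05 over all genes tested). The riser was Pdk1, which increased 1.57-fold. By comparison, 547 of all 13118 genes passed, or 4.17%, with 331 higher (2.52%) and 216 lower (1.65%); without a composition factor the split was 213 higher and 255 lower. At an unadjusted p under 0.05 stood 3 members, Pdk1, Mpc1 and Mpc2, beside 17.9% of all genes, and DESeq2 and limma-voom, which called 5.81% and 3.93% of all genes, each called Pdk1 as the single member. The subunits of the complex differed little, Pdk4 differed most in size but varied as much within a genotype, and both carrier subunits were lower without passing the test. The median log2 fold change of the members was -0.05, against -0.00032 over all genes tested.

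**Figure D1:**
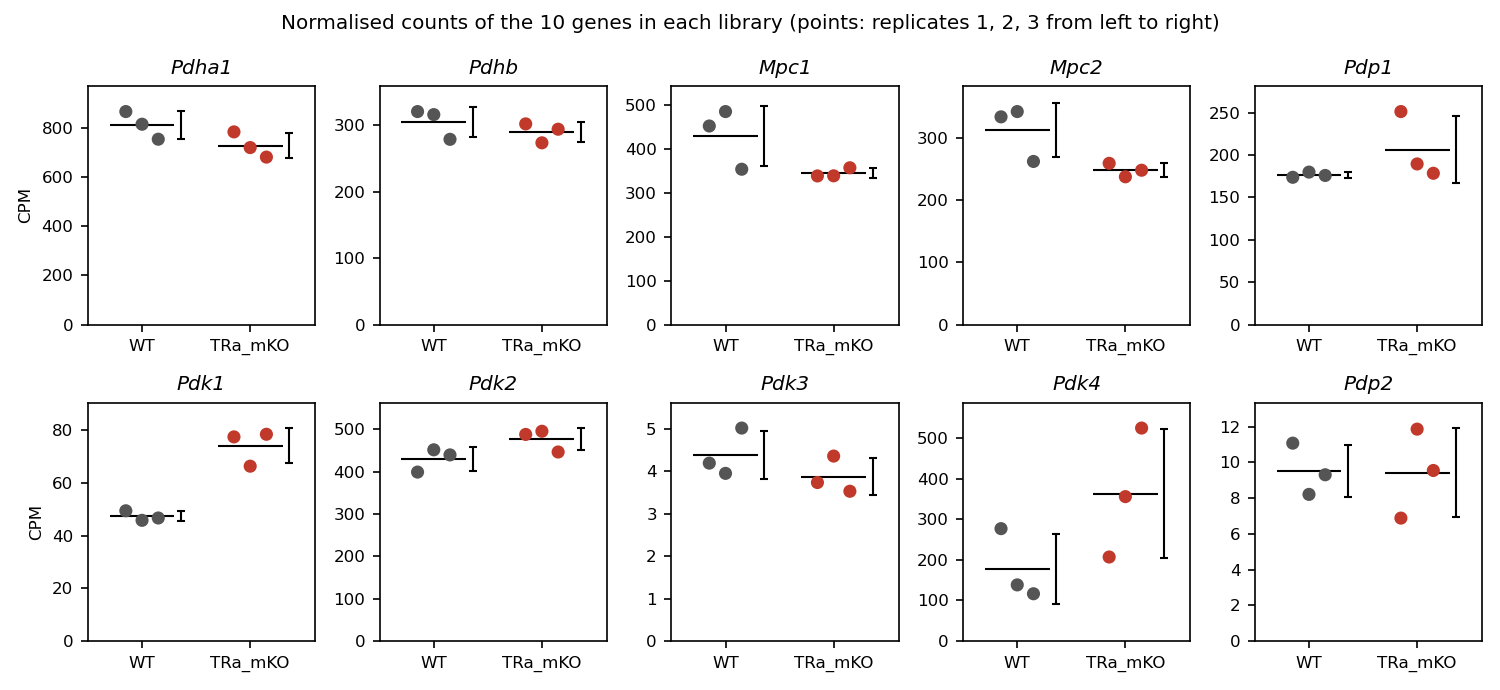
Normalised counts (CPM, vertical axes from 0) of the 10 genes in each of the 6 libraries, with WT in grey and TRa_mKO in red; the horizontal line is the mean and the bar beside it the SD over 3 libraries. Pdk1 lies at 45.9 to 49.5 CPM in WT, against at 66.4 to 78.5 CPM in TRa_mKO, while the points of Pdk4 spread from 117 to 277 and from 207 to 525 CPM.

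Among the kinases, Pdk1 (gene ID 228026) encodes an isoform that phosphorylates all of the regulatory serines of E1 alpha. It measured 49.5, 45.9 and 46.7 CPM in the WT libraries, against 77.5, 66.4 and 78.5 CPM in the libraries labelled TRa_mKO. All 3 TRa_mKO libraries lay above all 3 WT libraries, as did those of 13.2% of the genes tested, and the lowest of them exceeded the highest WT value. The means were 47.4 ± 1.89 and 74.2 ± 6.73 CPM (SD, n = 3 each), or 0.65 on the log2 scale (SE 0.09, 95% confidence interval 0.44 to 0.85) and 1.57-fold (1.36 to 1.80), with an adjusted p of 0.00414. By its p the gene ranked 105th of 13118. The call held under all 14 alternatives, with log2 fold changes from 0.59 to 0.71 and adjusted p from 5.4e-06 to 0.0312, the highest being the fit without the pair of libraries rich in red blood cell transcripts.

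Markers of slow fibres, satellite cells and myofibres were higher on average in the libraries labelled TRa_mKO, as Pdk1 was. Of 7 slow-fibre markers, 3 rose, beside 2.52% of all genes. All 7 had every TRa_mKO library above every WT one, beside 13.2% of all genes. Their sum was 1064 to 2467 CPM in WT, against 4484 to 6530 CPM in the libraries labelled TRa_mKO. The slow-fibre count was 7 without WT replicate 1 and also without the pair rich in red blood cell transcripts, 1 without WT replicate 2 or 3, and 0 without any 1 TRa_mKO library, with library size only or with no filter. DESeq2 called 6 of them, limma-voom 3, and edgeR with a block for replicate number 1. Of 3 satellite cell markers, 1 rose, and the sum was 15.5 to 17.5 against 23.3 to 25.4 CPM, with 0 passing when WT replicate 1 or 3 or TRa_mKO replicate 2 or 3 was left out. The satellite cell count was also 0 with a block for replicate number and without the pair rich in red blood cell transcripts. It was 2 with DESeq2 and with no filter, and 1 with limma-voom. Of the 5 myofibre markers edgeR called 0, with 3 at an unadjusted p under 0.05, 2 called by DESeq2 and 0 by limma-voom (sums given above). The 7 fast-fibre markers gave 0 edgeR calls (1 by DESeq2, 0 by limma-voom, 1 without WT replicate 1) and overlapping sums of 77600 to 103886 and 88406 to 100694 CPM, with 1 marker at an unadjusted p under 0.05. No marker of these 4 lists was at 0 in every library. The part of fibre type or of cell composition in the Pdk1 result was not tested, and in whole muscle more cells of a type and more RNA per cell cannot be told apart.

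By the rule for likeness, the genes nearest to Pdk1 among 12720 of at least 1 CPM on average were Tm6sf1, Cxadr and Hadha. Their log2 CPM, centred on the mean of the 6 libraries, differed from that of Pdk1 by 0.04, 0.04 and 0.05 on average. Hadha, a subunit of the trifunctional protein of fatty acid oxidation, and Cxadr, a cell adhesion receptor, had log2 fold changes of 0.56 and 0.78 (adjusted p = 0.0219 and 0.0168), and Tm6sf1 one of 0.58 (adjusted p = 0.0109). These genes were selected for following Pdk1, so their calls are no separate evidence.

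Pdk4 (gene ID 27273), the fasting-responsive isoform, showed the widest spread. It measured 277, 138 and 117 CPM in WT, against 207, 356 and 525 CPM in the libraries labelled TRa_mKO. WT replicate 1 lay above TRa_mKO replicate 1, so the genotypes overlapped. The means were 177 ± 87.1 and 363 ± 159 CPM (SD, n = 3 each). On the log2 scale the difference was 1.03 (SE 0.48), with a 95% confidence interval of -0.17 to 2.23, that is, from 0.89-fold to 4.70-fold, and did not pass (adjusted p = 0.344). Within a genotype the highest library exceeded the lowest 2.38-fold in WT and 2.53-fold in TRa_mKO. The pooled within-genotype SD of log2 CPM was 0.67 for Pdk4, against a median of 0.15 over genes of at least 1 CPM, and 99.2% of those genes varied no more than it.

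**Figure D2:**
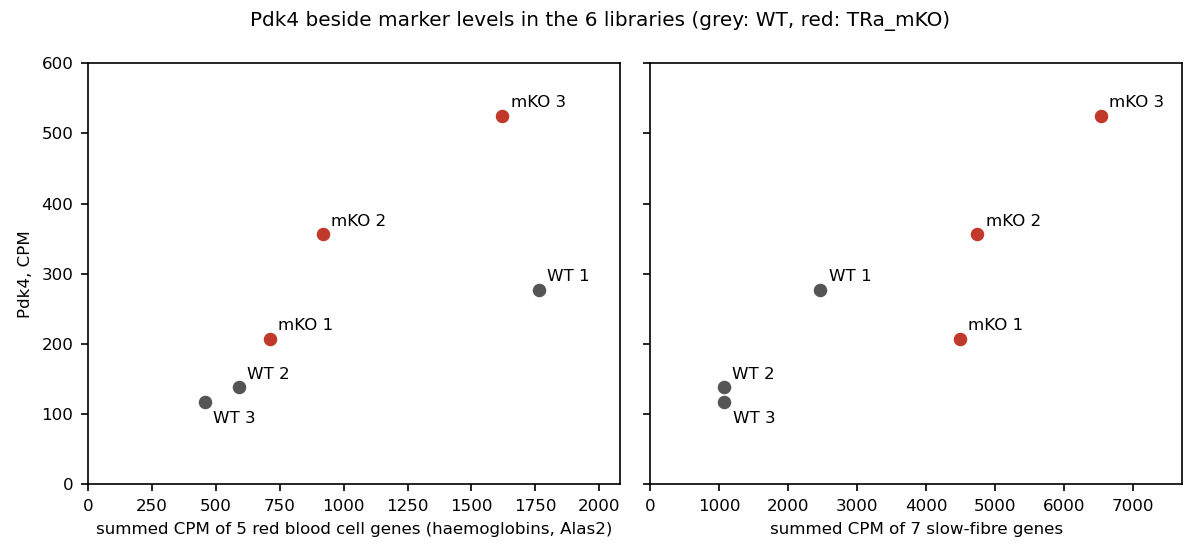
Pdk4 (CPM, vertical axis) against the summed CPM of 5 red blood cell genes (left) and 7 slow-fibre genes (right), 1 point a library, WT in grey and TRa_mKO in red. In each genotype the library highest in red blood cell transcripts (WT replicate 1 at 1763 CPM, TRa_mKO replicate 3 at 1621 CPM) is also the highest in Pdk4, at 277 and 525 CPM. The same libraries also have the highest slow-fibre sum of their genotype, at 2467 and 6530 CPM.

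The library with most Pdk4 in each genotype was the one with most red blood cell transcripts and also the one with the highest slow-fibre sum. Their 5 markers summed to 1763, 590 and 458 CPM in WT, against 710, 917 and 1621 CPM in the libraries labelled TRa_mKO, with 0 of 5 called by edgeR, DESeq2 or limma-voom, 0 at an unadjusted p under 0.05, and none at 0 in every library. The slow-fibre sum of these same libraries was 2467, 1064 and 1076 CPM in WT, against 4484, 4742 and 6530 CPM in TRa_mKO. Without WT replicate 1 and TRa_mKO replicate 3 the Pdk4 log2 fold change was 1.14 and did not pass (adjusted p = 0.131). The remaining libraries of the genotypes did not overlap there. That follows from leaving out WT replicate 1, the only WT library above a TRa_mKO one. Leaving out WT replicate 1 alone gave 1.5 (adjusted p = 0.168), and leaving out TRa_mKO replicate 3 alone 0.67 (adjusted p = 0.581). The part of blood content or fibre type in the Pdk4 values was not tested.

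Pdk2 (gene ID 18604), the most abundant kinase transcript of this muscle, measured 399, 451 and 439 CPM in WT, against 488, 495 and 446 CPM in the libraries labelled TRa_mKO. TRa_mKO replicate 3 fell within the WT range. Its log2 fold change was 0.15 (SE 0.10, interval -0.08 to 0.38) and did not pass (adjusted p = 0.499), and the interval limits a rise of Pdk2 to 1.30-fold. Pdk3 (gene ID 236900) is a minor isoform in muscle. It had 51 to 76 counts per library, or 4.19, 3.95 and 5.02 CPM in WT, against 3.73, 4.36 and 3.53 CPM in TRa_mKO, and the groups overlapped (log2 fold change -0.19, SE 0.18, interval -0.60 to 0.22, adjusted p = 0.66).

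Kinase levels were compared with one another per kilobase of the longest coding transcript (GENCODE M21). In WT muscle Pdk2 stood at 191 ± 12.3, Pdk4 at 50.9 ± 25, Pdk1 at 9.13 ± 0.364 and Pdk3 at 2.07 ± 0.265 CPM per kb (SD, n = 3). In the libraries labelled TRa_mKO the same order held, at 212 ± 11.7, 104 ± 45.7, 14.3 ± 1.30 and 1.83 ± 0.204 CPM per kb. The ranges of neighbours in this order did not overlap within either genotype, although with the length of all exons merged in place of the longest transcript Pdk4 (49.5%) exceeded Pdk2 (46.7%) in TRa_mKO replicate 3. Pdk2 made up 66.1%, 79.9% and 81.3% of the summed kinase level in WT and 74.0%, 65.3% and 54.2% in TRa_mKO. Pdk4 supplied 29.6%, 15.8% and 13.9% in WT and 20.3%, 30.3% and 41.2% in TRa_mKO, so the shares of both isoforms overlapped between the genotypes. Pdk1, although it alone passed the test, was 3.52% to 3.75% of the kinase level in WT and 3.79% to 5.10% in TRa_mKO. With merged exon lengths its shares overlapped, at 2.99% to 3.34% in WT and 3.18% to 4.44% in TRa_mKO. The summed level was 269, 251 and 240.5 CPM per kb in WT and 293, 338 and 366 CPM per kb in TRa_mKO, and the means of the genotypes differed by 53.2 CPM per kb for Pdk4, 20.7 for Pdk2 and 5.17 for Pdk1. No test was made of the sums.

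**Figure D3:**
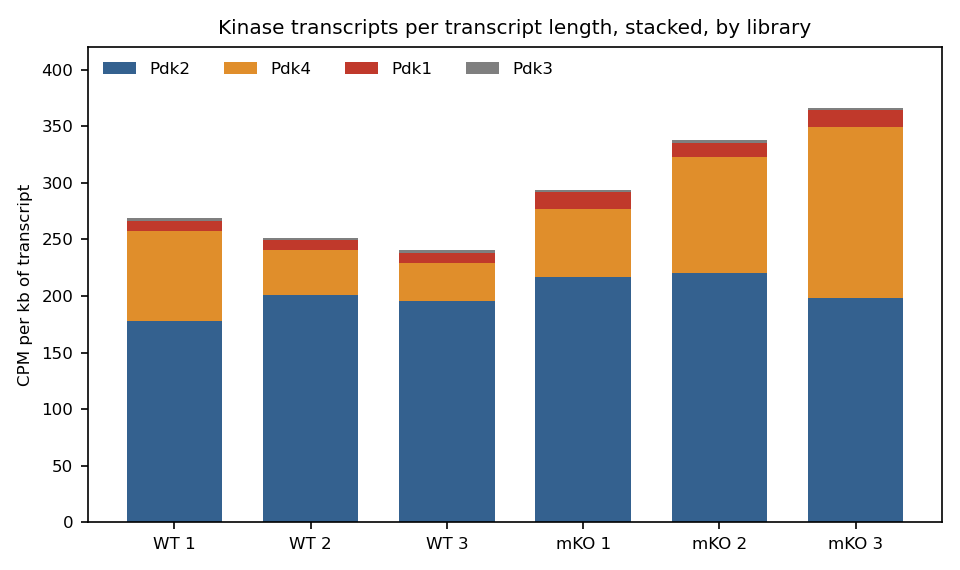
Kinase level in CPM per kb of transcript (vertical axis from 0), stacked by isoform, in the 6 libraries (mKO for TRa_mKO). Pdk2 fills most of each bar at 178 to 220.5 CPM per kb, the Pdk4 layer runs from 33.5 to 151, and the Pdk1 layer from 8.84 to 15.1.

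The phosphatases did not pass. Pdp1 (gene ID 381511), the calcium-stimulated phosphatase of muscle, measured 174, 179.8 and 176 CPM in WT, against 251, 189 and 178 CPM in the libraries labelled TRa_mKO. The WT values lay within 1.04-fold of each other, and a single library, TRa_mKO replicate 1, was high while TRa_mKO replicate 3 lay inside the WT range. The log2 fold change was 0.23 (SE 0.13, 95% confidence interval -0.06 to 0.51, adjusted p = 0.401), and 0.06 without TRa_mKO replicate 1 (adjusted p = 0.783). Pdp2 (gene ID 382051), the insulin-responsive phosphatase, had 94 to 148 counts per library. Its values of 11.1, 8.21 and 9.31 CPM in WT, against 6.88, 11.9 and 9.55 CPM in TRa_mKO overlapped throughout (log2 fold change -0.02, SE 0.20, adjusted p = 0.975). Per kilobase, Pdp1 held 95.5% to 96.7% of the phosphatase level in WT and 95.6% to 98.0% in TRa_mKO. The ratio of summed kinase to summed phosphatase level was 6.21, 5.68 and 5.53 in WT and 4.81, 7.16 and 8.30 in TRa_mKO. The lowest and the highest ratio both belonged to TRa_mKO libraries, replicate 1 with the most Pdp1 and replicate 3 with the most Pdk4.

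Pdha1 (gene ID 18597) encodes E1 alpha, the subunit that the kinases phosphorylate, and Pdhb (gene ID 68263) its partner E1 beta. Pdha1 measured 868, 816 and 755 CPM in WT, against 785, 721 and 682 CPM in the libraries labelled TRa_mKO. TRa_mKO replicate 1 lay within the WT range, and its log2 fold change was -0.16 (SE 0.11, interval -0.40 to 0.09, adjusted p = 0.508). Pdha1 is the single member with fractional counts, so part of its reads are shared with other features, which makes its values less certain. For Pdhb the values were 320.4, 316 and 279 CPM in WT, against 302, 273 and 294 CPM in TRa_mKO (log2 fold change -0.07, SE 0.10, interval -0.30 to 0.15, adjusted p = 0.768). The intervals limit a decrease to 0.756-fold for Pdha1 and 0.813-fold for Pdhb. Of the other subunits, Dlat (the E2 acetyltransferase), Dld (E3), Pdhx (the E3-binding protein) and Pdpr (the regulatory subunit of the phosphatase) gave 0 calls of 4 with edgeR, 0 at an unadjusted p under 0.05, and log2 fold changes of -0.11, -0.09, -0.16 and -0.08. All 4 overlapped between the genotypes, and DESeq2 and limma-voom called 0 of them (adjusted p of 0.639 to 0.881 with DESeq2).

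**Figure D4:**
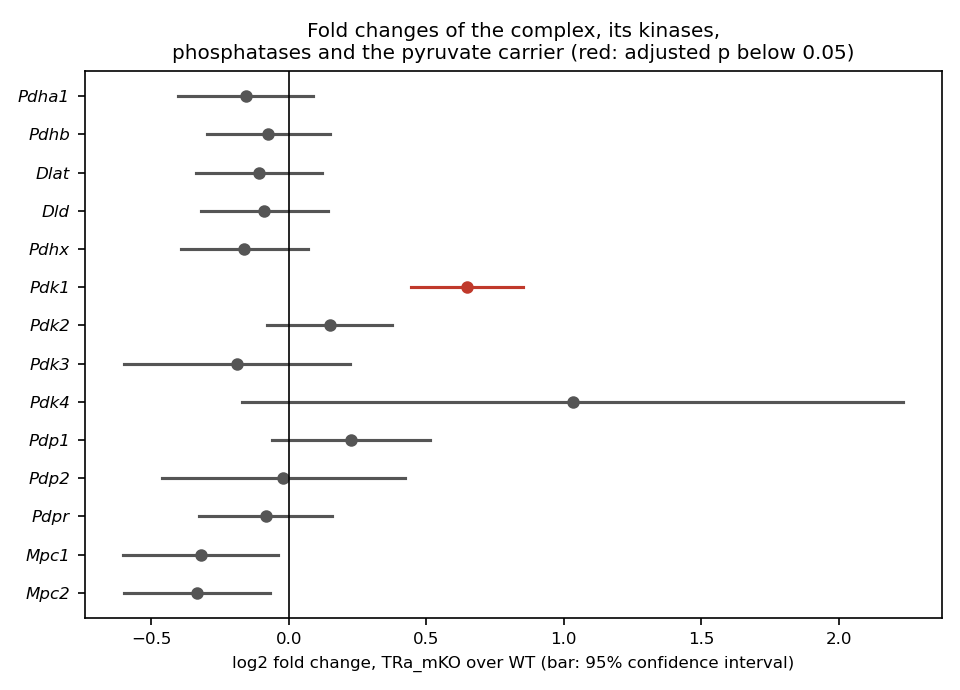
Log2 fold changes of TRa_mKO over WT (horizontal axis) with 95% confidence intervals for the 10 genes and 4 further subunits, genes with an adjusted p below 0.05 in red. Pdk1 at 0.65 is the single gene in red, the interval of Pdk4 runs from -0.17 to 2.23, and those of Mpc1 and Mpc2 end at -0.04 and -0.07.

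Mpc1 (gene ID 55951) measured 453, 486 and 355 CPM in WT, against 339, 339 and 358 CPM in the libraries labelled TRa_mKO. WT replicate 3 lay inside the TRa_mKO range, and the other 2 WT libraries above it. Mpc2 (gene ID 70456), the obligate partner of Mpc1, measured 335, 343 and 263 CPM in WT, against 259.7, 238 and 249 CPM in TRa_mKO. Here all WT libraries lay above all TRa_mKO libraries, as for 10.1% of all genes, with WT replicate 3 again the lowest of its group and within 1.01-fold of the nearest TRa_mKO library. The log2 fold changes were -0.32 for Mpc1 (SE 0.13, 95% confidence interval -0.60 to -0.04) and -0.33 for Mpc2 (SE 0.12, interval -0.60 to -0.07). Neither passed (unadjusted p = 0.0298 and 0.0186, adjusted p = 0.212 and 0.169). Without WT replicate 3 they were -0.44 and -0.45 (adjusted p = 0.0583 and 0.053). Per kilobase, Mpc1 stood over Mpc2 by a ratio of 1.44 to 1.51 in WT and 1.39 to 1.54 in TRa_mKO, so their proportion overlapped between the genotypes. Markers of endothelium and of Schwann cells were also lower on average. All 4 endothelial markers had negative log2 fold changes (median -0.34), with 0 called by edgeR, 3 at an unadjusted p under 0.05, 1 called by DESeq2 and 0 by limma-voom, and sums of 781 to 957 CPM in WT, against 564 to 789 CPM in TRa_mKO. All 4 Schwann cell markers were negative too (median -0.56), with 0 called by any of the 3 tools, 1 at an unadjusted p under 0.05, and overlapping sums of 141 to 617 and 226 to 301 CPM. The 3 pericyte and smooth muscle markers (median -0.21, 1 lower at an unadjusted p under 0.05) summed to 1395 to 1479.8 CPM in WT, against 1153 to 1397 CPM in TRa_mKO, with 0 called by any of the 3 tools. Lists for fibroblasts, adipocytes and leukocytes had 0 edgeR calls, 0 lower at an unadjusted p under 0.05, and overlapping sums, with 1 fibroblast marker called higher by DESeq2. No marker of these 6 lists was at 0 in every library, and their part in the values of Mpc1 and Mpc2 was not tested.

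The genes around the complex were read from 7 lists of 85 genes, of which 84 were tested. In all, 15 rose and 3 fell, with a median log2 fold change of 0.05 (20 and 5 with DESeq2, 13 and 3 with limma-voom, 9 and 5 with library size only), beside the 2.52% higher and 1.65% lower of all genes. Because the lists were chosen with earlier results of these data known, their counts are no test against those shares. In each list given below with 0 fallers, DESeq2 and limma-voom also called 0 lower, and at most 1 gene was lower at an unadjusted p under 0.05. Of 11 genes of lipoate, thiamine and coenzyme A supply, 2 rose and 0 fell (median 0.00). These were Pank1, a pantothenate kinase that starts coenzyme A synthesis (20.5 ± 2.98 to 35.0 ± 4.94 CPM, log2 fold change 0.77, adjusted p = 0.0125), and Slc25a42, the mitochondrial coenzyme A carrier (0.47, adjusted p = 0.0127). Of 9 genes of the sister 2-oxo acid dehydrogenases, which resemble the complex in build, 4 rose and 0 fell (median 0.27). Ppm1k, the phosphatase that activates the branched-chain complex and a gene with shared reads, rose from 32.4 ± 1.28 to 58.8 ± 6.49 CPM (log2 fold change 0.86, adjusted p = 0.00127). Bckdhb (0.62, adjusted p = 0.00269), Dbt (0.43, adjusted p = 0.0273) and Dhtkd1 (0.69, adjusted p = 0.0403, shared reads) also rose, whereas Bckdk, the matching kinase, measured 123 ± 1.30 and 121 ± 6.96 CPM (log2 fold change -0.02, adjusted p = 0.947).

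Of 14 tested genes of lactate and pyruvate handling, 1 rose and 1 fell (median -0.12), while DESeq2 called 1 higher and 3 lower and limma-voom 1 each way. At an unadjusted p under 0.05, 4 were lower, and 4 had all WT libraries above, beside 10.1% of all genes. Ldhb, the heart-type lactate dehydrogenase, rose from 252 ± 76.3 to 483 ± 65.2 CPM (log2 fold change 0.94, adjusted p = 0.0419), and Gpt2, which makes alanine from pyruvate in mitochondria, fell by 2.77 on the log2 scale (adjusted p = 9.02e-06). Of 9 genes of the acetyl-CoA use list, which also holds enzymes that make acetyl-CoA, 1 rose and 0 fell (median 0.05). The riser was Acss1, the mitochondrial acetyl-CoA synthetase, from 32.9 ± 3.28 to 79.6 ± 15.8 CPM (log2 fold change 1.27, adjusted p = 0.00225). Among 18 regulators known to act on Pdk genes, 2 rose and 2 fell (median 0.01). Ppara, a lipid-sensing receptor that activates Pdk4, rose from 10.8 ± 0.429 to 22.1 ± 2.54 CPM (adjusted p = 0.0013), and Esrrb rose (log2 fold change 0.79, adjusted p = 0.0189). The fallers were Thrb, the other thyroid hormone receptor (-0.93, adjusted p = 0.00125, shared reads), and Lpin1, a coactivator of Ppara (-0.97, adjusted p = 0.0141). Hif1a, whose protein drives Pdk1 in hypoxia, measured 54.7 ± 2.44 and 56.7 ± 6.4 CPM (log2 fold change 0.05, adjusted p = 0.849). These counts give RNA and not the level of the protein, and its part in the Pdk1 result was not tested. Of 19 fatty acid use genes, 5 rose and 0 fell (median 0.45). They included Cpt1b, the gatekeeper of fatty acid entry into mitochondria (log2 fold change 0.74, adjusted p = 0.00581), the carnitine carrier gene Slc25a20 (0.60, adjusted p = 0.0145), Hadha (given above) and Cpt2 (0.45, adjusted p = 0.0241). The slow-fibre markers moved in the same direction as the fatty acid genes and Ldhb. All 7 had every TRa_mKO library above every WT one, beside 13.2% of all genes, with a median of 1.85 and the sums given above. The part of slow fibres in these results was not tested.

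Of the 18 calls in these lists, 7 held under every alternative that included them: Bckdhb, Ppm1k, Gpt2, Acss1, Ppara, Thrb and Cpt1b. Of these 7, Ppm1k and Thrb have shared reads and were absent from the fit that left out such genes. The other 11 ended when at least 1 library was left out, at adjusted p from 0.0539 to 0.0768 for Slc25a42 (WT replicate 2, TRa_mKO replicate 2) and 0.0667 for Pank1 (TRa_mKO replicate 2). Dbt ended at 0.0686 to 0.136 (any library but TRa_mKO replicates 1 and 3), Dhtkd1 at 0.0552 to 0.143 (any but TRa_mKO replicate 3) and Lpin1 at 0.058 (TRa_mKO replicate 2). Without WT replicate 2, WT replicate 3, TRa_mKO replicate 2 or TRa_mKO replicate 3, calls ended for Ldhb (0.0835 to 0.143), Esrrb (0.0568 to 0.0759) and Cpt2 (0.0548 to 0.0961). Slc25a20 ended at 0.0559 to 0.0708 (WT replicate 2 or 3, TRa_mKO replicate 2) and Hadha at 0.0561 to 0.0861 (WT replicate 2 or 3, TRa_mKO replicate 3). The fifth riser among fatty acid genes, Angptl4, ended at 0.0722 to 0.129 (any WT library, TRa_mKO replicate 2). Without WT replicate 1 and TRa_mKO replicate 3 together, calls ended for Slc25a42 (adjusted p = 0.0865), Pank1 (0.0826) and Dhtkd1 (0.0608). That fit also ended the calls of Dbt (0.0849), Esrrb (0.12) and Hadha (0.0795). Calls also ended with every library kept. Library size only ended Slc25a42, Dhtkd1, Dbt, Ldhb, Cpt2 and Angptl4. A block for replicate number ended Dbt, Ldhb, Esrrb, Cpt2 and Angptl4. Limma-voom ended Dhtkd1 (adjusted p = 0.0522) and Angptl4 (0.0939), and edgeR with no filter ended Angptl4 (0.067). With 1 library left out, 8 to 23 genes of the 84 passed, and 10 passed without WT replicate 2, 10 without WT replicate 3 and 8 without TRa_mKO replicate 2.

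**Figure D5:**
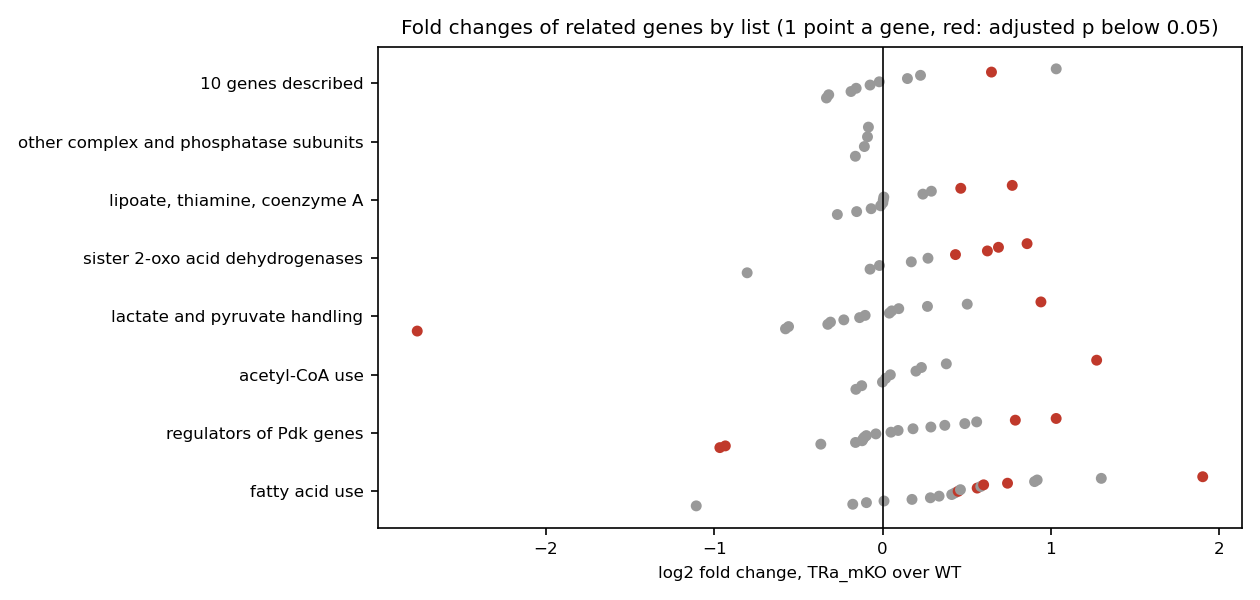
Log2 fold changes of TRa_mKO over WT (horizontal axis) for the 10 genes and for each related list, 1 point a gene, genes with an adjusted p below 0.05 in red. The other complex subunits cluster between -0.16 and -0.08, while 5 of 19 fatty acid use genes and 4 of 9 sister dehydrogenase genes are red and to the right of 0.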

How the data were processed

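Per the labels' protocols, libraries were made from poly(A)-selected RNA, stranded with dUTP and sequenced paired-end. Trimmomatic 0.39, featureCounts, FastQC 0.11.9, MultiQC 1.12 and 3 builds (mm10, GRCm38.p6, GRCm39) stand in the submitters' processing notes. The aligner was not given in the sources used here, nor were annotation and strand setting. Estimated counts per gene were deposited by the authors without normalisation, of which 9.6% to 10.0% per library were not whole, and these were rounded here. Value columns given to no sample numbered 0.

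Genes passing filterByExpr (minimum count 10) were normalised by TMM and tested in edgeR 4.0.16 (R 4.3.3, robust two-sided quasi-likelihood test, genotype only, Benjamini-Hochberg over 13118 genes). Intervals cover 95%. Steps were tested on simulated data. Library totals of 12390527 to 14488500 set the counting precision. Named were all members, list genes that passed (at most 4 by p), Thra, Thrb and the 3 nearest profiles. Dlat, Dld, Pdhx and Pdpr, a list in which no gene passed, were all named as well. Other genes named beyond these (Bckdk, Hif1a, Angptl4) were chosen after their values were seen. The members and lists were chosen with earlier results of these data known. Alternatives used DESeq2 1.42.0, limma 3.58.1, other normalisation and filters, a replicate block and fewer libraries. 1 listed gene, Pc, was not analysed here. Promoters are from RefSeq.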

Additional observations from a re-analysis of the deposited data

How the results depend on the processing

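Pdk1 was the 1 member called under each of the 14 alternatives, and the other 9 passed under none. All members but Pdp2 kept their direction. The Pdp2 log2 fold change of -0.02 became -0.22 to 0.16 with 1 library left out, positive on leaving out WT replicate 1 (0.0919) or TRa_mKO replicate 1 (0.163), and 0.0897 without the pair rich in red blood cell transcripts; the cause was not tested. Pathway list genes passing numbered 18, and 8 to 23 with 1 library left out (10 on dropping either WT replicate 2 or WT replicate 3, and 8 on dropping TRa_mKO replicate 2), and the cause was not tested. Same-numbered deviations correlated at -0.18, 0.01 and -0.05, and none of the 6 libraries correlated best with its own number. The deviations were centred within the 3 libraries of each genotype, so their correlations offset one another. They therefore cannot settle whether the replicate numbers mark pairs. With the replicate block, Pdk1 passed (adjusted p = 0.0149), 1 member and 13 list genes were called, and 357 genes in all. All genes called numbered 547, and leaving out WT replicate 2 gave 361, WT replicate 3 310, TRa_mKO replicate 2 209 and the blood-rich pair 267. Merged exon lengths, a choice made after seeing the data, kept the kinase order of the group means, with Pdk4 at 25.4% in place of 19.8% of the kinase level in WT and 37.9% in place of 30.6% in TRa_mKO, and Pdk1 at 3.14% in place of 3.61% and 3.65% in place of 4.34%. Pdk3 and Pdp2 had the fewest counts of the members, 51 to 76 and 94 to 148 per library.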
